A study of Mus musculus with 6 samples.

Results

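Cytokine-high microglia were brain cell barcodes that carried microglia transcripts together with at least 3 of 7 cytokine and activation transcripts. The members were chosen by these measured transcripts. A barcode was kept from 500 unique molecular identifiers (UMIs, each 1 captured RNA molecule) and 300 genes upward if no more than 15% of its UMIs were mitochondrial. It was called microglia with at least 3 of P2ry12, Tmem119, Cx3cr1, Csf1r, Siglech, Gpr34, Trem2 and Selplg and fewer than 2 of Cldn5, Kl, Cd3e, Mrc1 and Csf3r, which mark endothelium, choroid plexus, T cells, border macrophages and neutrophils. It was called cytokine-high with at least 3 of Ccl2, Ccl3, Ccl4, Tnf, Il1a, Il1b and Cd83, each counted from 1 UMI. The rule found 3308 members among 21111 microglia and 94144 kept barcodes. The other 17803 microglia carried 0 to 2 of the cytokine genes and are called other microglia.

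Single-cell 3′ RNA libraries of freshly dissociated mouse brain cells were compared in 3 groups of 2 libraries. The groups were WT vehicle (wild type given the solvent alone), WT bilirubin (wild type given bilirubin, the pigment left by haem breakdown) and TRPM2 Mg KO bilirubin (a Trpm2 knockout given bilirubin). Both bilirubin groups share the agent, so their comparison addresses the genotype, and the 2 wild-type groups address the agent. The labels do not expand "Mg", and the promoter or Cre line behind the knockout, the bilirubin dose and duration, and the age, sex and number of animals are not given in the sources used here. No label ties a replicate to its own animal. The p-values therefore reflect how far these libraries differ from each other, and that spread could be technical. Libraries are named by group and replicate number.

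Microglia are the resident macrophages of brain tissue, and they sense purines, lipids and debris through receptors such as P2ry12 and Trem2. On activation they transcribe chemokines and cytokines through NF-kB, AP-1 and C/EBP transcription factors, and the dissociation of fresh tissue is itself known to induce such transcripts. Trpm2 is a calcium-permeable cation channel opened by ADP-ribose under oxidative stress.

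Each library had between 4137 and 24309 barcodes with 24165563 to 63402551 UMIs, and members gave sums of 1248700 to 3706923 UMIs. Members were deeper than other microglia, with median UMIs of 2018.5 and 3107 in WT vehicle, 4119 and 3291 in WT bilirubin and 4557 and 4735 in TRPM2 Mg KO bilirubin, against 1421 to 2300 in other microglia. Median mitochondrial percentages over kept barcodes were 7.21 in WT bilirubin 1, 5.67 in TRPM2 Mg KO bilirubin 1 and 3.81 in TRPM2 Mg KO bilirubin 2, and 0.657 to 1.07 in the other 3 libraries. Of 93187 different kept barcodes, 954 occurred in more than 1 library, and 3 of 3305 different member barcodes did. Library TRPM2 Mg KO bilirubin 2 stood apart, because only 179 of its 807 barcodes with at least 3 cytokine genes (22.2%) were members, against 64.5% to 81.6% in the other 5 libraries.

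Members carried the microglia genes of the rule in every library, which the rule in part required, so these shares describe the members and do not check the label. Trem2, a lipid and debris receptor, had a UMI in 82.4% to 95.1% of members, and Csf1r, the receptor of the growth factor that keeps microglia alive, in 74.3% to 94.9%. Cx3cr1, the fractalkine receptor, was found in 86.0% and 88.3% of WT vehicle members, 79.3% and 91.2% of WT bilirubin members and 84.9% and 81.0% of TRPM2 Mg KO bilirubin members. P2ry12, the ADP receptor of process motility, was found in 61.2% and 71.8%, 84.4% and 83.5%, and 92.3% and 90.5% in the same order. The order of groups for P2ry12 follows the order of median depth, and a share of cells with a UMI depends on depth.

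Members also held transcripts that mark other cells, and their part in the results was not tested. Endothelial RNA was highest in the knockout libraries: the 7 endothelial markers summed to 321 and 192 CPM (UMIs scaled to a common total per library) in WT vehicle, 585 and 173 in WT bilirubin, and 1016 and 1822 in TRPM2 Mg KO bilirubin, with all 7 detected in each library. Neutrophil RNA was highest in WT bilirubin: the 12 neutrophil markers summed to 116 and 293, 1760 and 5854, and 392 and 448 CPM, with no UMI for 2, 2, 0, 0, 1 and 4 of the 12 markers in the 6 libraries. Neuronal RNA was highest in WT vehicle 1, where 16 neuronal transcripts summed to 11910 CPM, against 1162 to 3946 CPM in the other 5 libraries. Choroid plexus markers summed to 5056 CPM in WT vehicle 1 and 26031 to 41053 CPM elsewhere, and erythroid genes to 1875 to 28170 CPM. Exactly 1 of the 5 exclusion genes was found in 23.5% and 44.9% of WT vehicle, 61.9% and 53.7% of WT bilirubin, and 68.0% and 74.3% of TRPM2 Mg KO bilirubin members. The commonest in the last library was Cldn5, the tight junction claudin of endothelium, in 46.4% of its members. Csf3r was found in 12.9% and 15.9% of WT vehicle, 28.1% and 32.8% of WT bilirubin, and 30.6% and 19.6% of TRPM2 Mg KO bilirubin members. Other microglia had it in 5.46% and 7.44%, 5.48% and 14.7%, and 3.90% and 5.67%. Its CPM was also higher in members than in other microglia in every library. Whether the Csf3r of members came from other cells was not tested.

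The targeted gene was measured first. Trpm2 gave 25 and 38 UMIs in WT vehicle members, 71 and 37 in WT bilirubin members and 34 and 17 in TRPM2 Mg KO bilirubin members. These were 17.6 and 14.4, 18.6 and 24.3, and 11.7 and 15.1 CPM after library scaling. The knockout libraries lay below both WT bilirubin libraries and overlapped WT vehicle, and the difference of -0.69 on the log2 scale (SE 0.38) from WT bilirubin had an edgeR adjusted p of 1. A 3′ tag can lie outside a deleted exon, so this level does not check the genotype.

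Ccl4 was the most abundant of the 7 cytokine genes in members of every library, and Il1b the least abundant. These values chose the members and are given as a description. Ccl4, a chemokine that draws T cells and monocytes, had a UMI in 95.8% and 91.4% of WT vehicle members, 88.3% and 86.2% of WT bilirubin members and 84.3% and 83.8% of TRPM2 Mg KO bilirubin members. Its level was 8030 and 3983, 3400 and 4152, and 2962 and 1795 CPM. Its neighbour and close relative Ccl3 was found in 57.2% to 70.1% of members, at 314 to 761 CPM, and Ccl3 and Ccl4 occurred together in 50.3% to 67.4%.

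Cd83 and Il1a were found in more members under bilirubin, with no overlap between the 4 bilirubin libraries and WT vehicle. Cd83, a surface glycoprotein of activated antigen-presenting cells, was found in 52.6% and 58.2% of WT vehicle members, 74.3% and 79.9% of WT bilirubin members and 78.4% and 71.5% of TRPM2 Mg KO bilirubin members. Il1a, an alarmin cytokine released by stressed cells, was found in 29.4% and 40.5%, 57.0% and 55.4%, and 66.0% and 44.1%. All 4 bilirubin libraries had deeper members than WT vehicle, and a share of cells with a UMI depends on depth. In CPM, Il1a overlapped between WT vehicle (174 and 152 CPM) and TRPM2 Mg KO bilirubin (295 and 111 CPM), with 251 and 263 CPM in WT bilirubin. Il1b, the interleukin that needs inflammasome cleavage for release, was rare: 2.47% and 6.44% of WT vehicle members, 13.9% and 13.2% of WT bilirubin members and 8.45% and 8.94% of TRPM2 Mg KO bilirubin members had a UMI.

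Tnf, the cytokine that starts much of NF-kB signalling in neighbouring cells, was found in 39.1% to 50.3% of members of every library, with the 3 groups overlapping. Ccl2, the attractant of CCR2 monocytes, was found in 59.2% and 45.1%, 48.4% and 42.1%, and 42.0% and 62.0% of members in the same order of groups, which also overlapped.

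**Figure D1:**
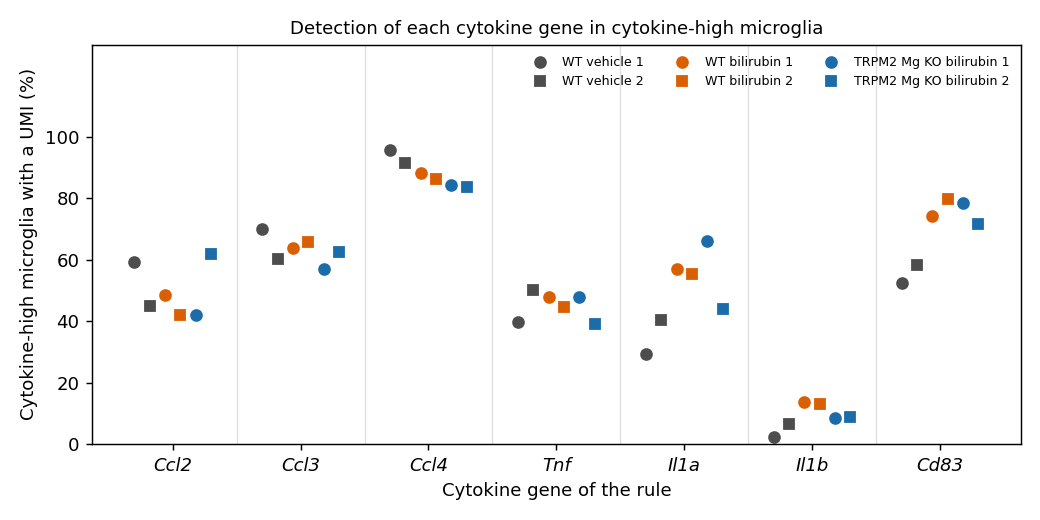
Percentage of cytokine-high microglia with at least 1 UMI of each of the 7 cytokine genes of the rule, 1 point per library, coloured by group and shaped by replicate number, with no error bars. Ccl4 is the commonest gene in all 6 libraries (83.8% to 95.8%) and Il1b the rarest (2.47% to 13.9%). The Cd83 percentage, which depends on depth, lies higher in the 4 bilirubin libraries than in WT vehicle, whereas its CPM overlapped.

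A larger part of the members stood at the threshold in WT vehicle than in any bilirubin library, and WT vehicle members were the shallowest. Exactly 3 cytokine genes were found in 63.8% and 62.4% of WT vehicle members, 42.7% and 46.8% of WT bilirubin members and 45.0% and 51.4% of TRPM2 Mg KO bilirubin members. Scaled to depth, the order differed: members held 104 and 54.3 cytokine UMIs per 10000 UMIs in WT vehicle, 53.9 and 63.2 in WT bilirubin and 47.4 and 28.8 in TRPM2 Mg KO bilirubin. The commonest combination was Ccl2, Ccl3 and Ccl4 in WT vehicle 1 (13.8%), and Ccl3, Ccl4 and Cd83 in WT vehicle 2 (10.1%), WT bilirubin 2 (13.2%) and TRPM2 Mg KO bilirubin 2 (9.50%). In WT bilirubin 1 it was Ccl3, Ccl4, Il1a and Cd83 (6.56%), and in TRPM2 Mg KO bilirubin 1 it was Ccl4, Il1a and Cd83 (9.82%). Just outside the threshold, microglia with exactly 2 genes had 46.0 and 24.1 cytokine UMIs per 10000 UMIs in WT vehicle, 14.3 and 24.2 in WT bilirubin and 12.8 and 12.5 in TRPM2 Mg KO bilirubin. Those with exactly 3 genes, just inside, had 89.1 and 42.4, 30.3 and 52.0, and 25.8 and 19.1, higher within each library. The same genes define both classes, so this order is largely set by the rule.

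Promoter letters were read for the genes of the rule and for Cebpb, a transcription factor gene whose level differed between genotypes in members. The RefSeq promoter table (build GRCm38.p6, 250 bases before to 50 after each start) held 4 of the 7 cytokine genes, Ccl3, Il1a, Il1b and Tnf, and also Cebpb. The letters GGG, any 5 bases and CC, an NF-kB core, and TTGCNNAA, a C/EBP core, were searched on both strands. Tnf and Cebpb are shown because they were the ones of these 5 with the NF-kB letters, which stand in capitals. Tnf lies on the minus strand at chr17:35201958-35202257, and Cebpb on the plus strand at chr2:167688665-167688964.
Tnf: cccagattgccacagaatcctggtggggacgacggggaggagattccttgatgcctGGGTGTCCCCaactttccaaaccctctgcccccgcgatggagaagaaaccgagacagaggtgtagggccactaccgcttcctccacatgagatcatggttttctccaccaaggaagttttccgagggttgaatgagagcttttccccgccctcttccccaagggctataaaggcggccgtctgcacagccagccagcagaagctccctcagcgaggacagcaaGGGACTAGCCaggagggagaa
Cebpb: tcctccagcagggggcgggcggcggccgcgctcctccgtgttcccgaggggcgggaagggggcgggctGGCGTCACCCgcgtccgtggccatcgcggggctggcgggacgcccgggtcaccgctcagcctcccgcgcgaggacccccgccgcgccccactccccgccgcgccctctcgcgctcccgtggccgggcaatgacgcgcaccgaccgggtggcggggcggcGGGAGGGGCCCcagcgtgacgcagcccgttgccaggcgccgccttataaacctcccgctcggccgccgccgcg

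The Tnf window held 2 matches, with first bases at -194 and 30 from the start, and the Cebpb window held 3, at -182, -23 and -22, the last 2 of which overlap. The NF-kB letters occurred in 50.8% of all 32851 promoters of this length, the C/EBP letters in 10.8% and both in 4.33%. The C/EBP letters were in none of the 5 windows. A match is a description of letters and not a site.

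Members made up a larger share of microglia in both WT bilirubin libraries than in either WT vehicle library. The share was 15.2% and 12.5% in WT vehicle (13.8% ± 1.88, SD, n = 2), 19.4% and 27.5% in WT bilirubin (23.4% ± 5.72, n = 2) and 12.6% and 20.6% in TRPM2 Mg KO bilirubin (16.6% ± 5.70, n = 2). WT bilirubin exceeded WT vehicle by 9.60 percentage points without overlap, at an exact two-sided permutation p of 0.333, the smallest that 2 against 2 libraries allow. TRPM2 Mg KO bilirubin differed from WT bilirubin by -6.82 points with overlapping libraries (exact permutation p = 0.667) and from WT vehicle by 2.78 points, also overlapping (exact permutation p = 0.667).

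With the whole rule applied anew at equal depth, both WT bilirubin libraries were the highest. With all UMIs, TRPM2 Mg KO bilirubin 2 lay above WT bilirubin 1. All kept barcodes were thinned at random to 1000 UMIs, shallower ones were left out and the rule was applied anew. Shares were then 9.67% and 5.12% in WT vehicle, 11.2% and 17.6% in WT bilirubin and 6.78% and 6.96% in TRPM2 Mg KO bilirubin. Thinned to 2000 UMIs they were 26.5% and 13.03%, 28.2% and 34.5%, and 18.9% and 16.6%. In both settings each WT bilirubin library lay above every library of the other groups, with differences from TRPM2 Mg KO bilirubin of -7.57 and -13.6 points (exact permutation p = 0.333, the smallest possible). Barcodes barred by exclusion genes at full depth could become microglia after thinning, so the cells compared were not the same. At 2000 UMIs, TRPM2 Mg KO bilirubin 2 had a mean of 629.7 microglia, against 508 of that depth called with all UMIs. With microglia called at full depth and only cytokine detection thinned, WT bilirubin 1 lay below WT vehicle 1. Its shares were 6.75% against 8.33% at 1000 UMIs and 19.9% against 24.1% at 2000 UMIs. Both WT bilirubin libraries still lay above both knockout libraries (3.92% and 4.52%, and 13.1% and 14.7%). Of 4536 microglia called at full depth in WT vehicle 1, 3368 were too shallow for 2000 UMIs and 1168 were kept. The part left out was larger than in any other library, so the 2000-UMI shares of WT vehicle 1 describe its deeper cells.

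Few of the barcodes set apart as endothelial or choroid plexus met the cytokine threshold, but this does not check the members. Barcodes that also carried several microglia genes were not counted among them, so a low share was in part set by that choice. Endothelial markers were common in cytokine-high barcodes that did carry microglia genes, as given below for a knockout library. At least 3 of the 7 cytokine genes were found in 0% to 0.843% of endothelial barcodes and 0% to 0.909% of choroid plexus barcodes per library. These were 5928 endothelial and 8313 choroid plexus barcodes in all, with median UMIs per library of 1191 to 2100 and 2943 to 6769, against 1505 to 2565 in all microglia. At 2000 UMIs per cell the highest share was 0.508% and 0.66%.

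The genotype difference in share turned with the exclusion genes, an alternative chosen after seeing the data. Over all barcodes with at least 3 microglia genes, the cytokine-high share was 15.3% and 13.1% in WT vehicle, 21.2% and 28.7% in WT bilirubin and 15.2% and 44.4% in TRPM2 Mg KO bilirubin. The knockout mean then lay 4.85 points above WT bilirubin (exact permutation p = 1), and the difference of WT bilirubin from WT vehicle was 10.8 points. In library TRPM2 Mg KO bilirubin 2 the exclusion genes left out 614 cytokine-high barcodes with a median of 17643.5 UMIs. Of these, 98.0% had Cldn5, 91.4% had Kl, a choroid plexus transcript, and 96.6% had at least 3 endothelial markers. The other 5 libraries lost 18 to 235 such barcodes, with medians of 2659.5 to 5599 UMIs. Per library, 70.5% to 93.6% of those had Csf3r and 0% to 4.26% had at least 3 neutrophil markers. In TRPM2 Mg KO bilirubin 2 these shares were 42.3% and 21.3%. Every barcode left out held at least 2 of the 5 exclusion genes, so high shares of these genes are in part set by the rule.

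**Figure D2:**
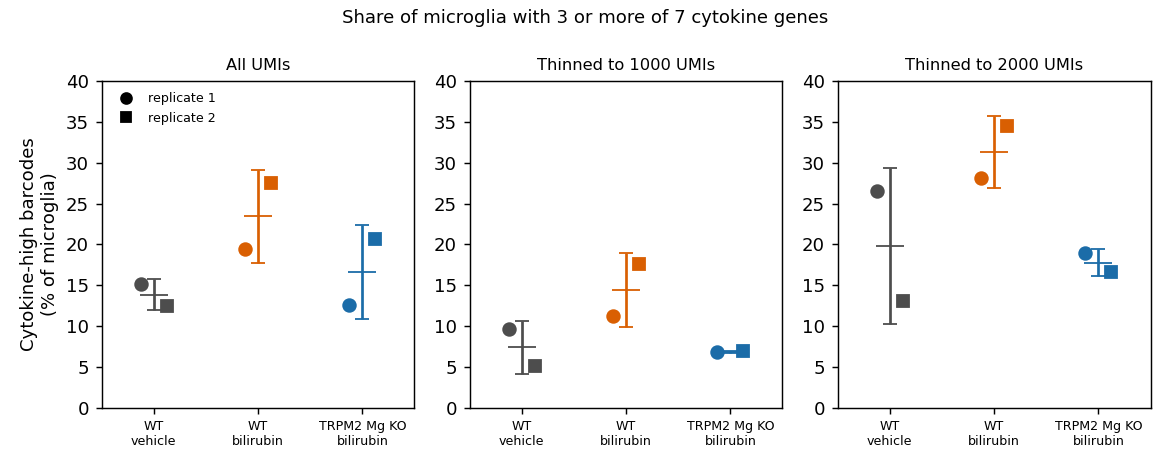
Cytokine-high barcodes as a percentage of microglia, with all UMIs and after thinning each cell to 1000 or 2000 UMIs. After thinning, microglia and cytokine genes were both called anew. Points are the 2 libraries of a group, and bars show mean ± SD. The WT bilirubin libraries (19.4% and 27.5% with all UMIs) lie above WT vehicle in all 3 panels and above TRPM2 Mg KO bilirubin in both thinned panels.

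Beyond the genes of the rule, members carried more chemokine, NF-kB feedback, immediate-early and homeostatic microglia transcripts than other microglia, and less neuronal, oligodendrocyte and choroid plexus RNA. The rule drew on the same cells, so this is a description with no test, and members were the deeper cells. Among 12728 genes with at least 50 UMIs in members, 18.7% were higher in all 6 libraries and 20% were lower in all 6. Of 24 NF-kB genes measured, 20 were higher in all 6 libraries, with a median log2 ratio of 1.25, and 1, Sod2, was lower in all 6. Of 30 immediate-early and dissociation genes 28 were higher (median 1.19), of 15 further chemokine and growth factor genes 11 (1.39), and of 18 danger and cytokine receptors 17 (0.82).

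Cxcl10, a chemokine for T cells induced by interferon and NF-kB, had the ratio that stayed highest across libraries. It stood at 40.7 and 17.2 CPM in WT vehicle members against 6.77 and 3.86 in other microglia, 28.1 and 24.9 against 2.16 and 7.47 in WT bilirubin, and 25.7 and 24.0 against 1.30 and 6.29 in TRPM2 Mg KO bilirubin. Its log2 ratio, with 1 CPM added, was 1.61 to 3.54. Atf3, a stress-induced AP-1 family factor, stood at 713 to 2213 CPM in members and 217 to 737 CPM in other microglia, with log2 ratios of 1.54 to 2.49.

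The NF-kB feedback genes followed with similar ratios. Nfkbiz, an inhibitor-like cofactor of NF-kB, had log2 ratios of 1.37 to 2.70, Nfkbid, its relative, 1.19 to 2.84, and Tnfaip3, the ubiquitin-editing brake on NF-kB, 1.22 to 2.19. The stress-response gene Ier3 had 1.19 to 1.82. Bcl2a1d, a survival gene of the BCL2 family, had 1.28 to 2.03, but it has near-identical copies whose reads cannot be told apart with certainty.

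Receptors and innate sensors formed another set. Ccrl2, a non-signalling chemerin receptor, had log2 ratios of 1.35 to 3.09, and C5ar1, the complement C5a receptor, 1.13 to 2.83. Clec7a, the beta-glucan receptor dectin-1, had 1.28 to 2.03, and Nlrp3, the inflammasome sensor, 1.14 to 2.48. Osm, an interleukin-6 family cytokine, had 1.16 to 2.80, Ildr1 had 1.11 to 2.25, and the immediate-early factors Fos and Egr2 had 1.24 to 2.03 and 1.24 to 2.52. With every cell thinned to 2000 UMIs, the lowest library ratio among these 15 genes was 0.61, for Bcl2a1d.

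Members were not depleted of homeostatic transcripts relative to other microglia, which themselves held RNA of other cells. All 32 further homeostatic microglia genes were higher in members in all 6 libraries, with a median log2 ratio of 0.61, and so were all 5 C/EBP genes, with a median of 0.85. In other microglia the 32 genes summed to 97317 and 71520 CPM in WT vehicle, 48124 and 61672 in WT bilirubin, and 52597 and 55919 in TRPM2 Mg KO bilirubin. Over all barcodes they summed to 69561 and 45117, 30039 and 19799, and 34261 and 44760 CPM. Whether members only held less RNA of other cells was not tested. Of 12 antigen presentation genes 10 were higher in all 6 libraries, of 14 IL-1 pathway and inflammasome genes 10, of 18 disease-associated microglia genes 8, of 17 interferon response genes 7 and of 19 Trpm2 and calcium entry genes 7. The 23 NADPH oxidase and antioxidant genes were mixed, with 9 higher and 4 lower in all 6 libraries.

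Markers of neurons, oligodendrocytes, choroid plexus and astrocytes were lower in members. Of 16 neuronal transcripts 14 were lower in members in all 6 libraries, as were all 8 oligodendrocyte markers, all 7 choroid plexus markers and 6 of 8 astrocyte markers. Mog, a myelin protein, had log2 ratios of -3.16 to -0.72, and Kcnj13, a potassium channel of choroid plexus, -1.37 to -0.76. Kcnip4, a neuronal potassium channel partner, had -0.80 to -0.72, Fgf12, a modulator of sodium channels, -1.36 to -0.71, and the growth hormone receptor Ghr -1.51 to -0.73. Sntg1, Clip4 and Slco3a1 lay between -1.51 and -0.70. Of these 8 genes, chosen by their ratios, Mog alone is in a marker list.

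**Figure D3:**
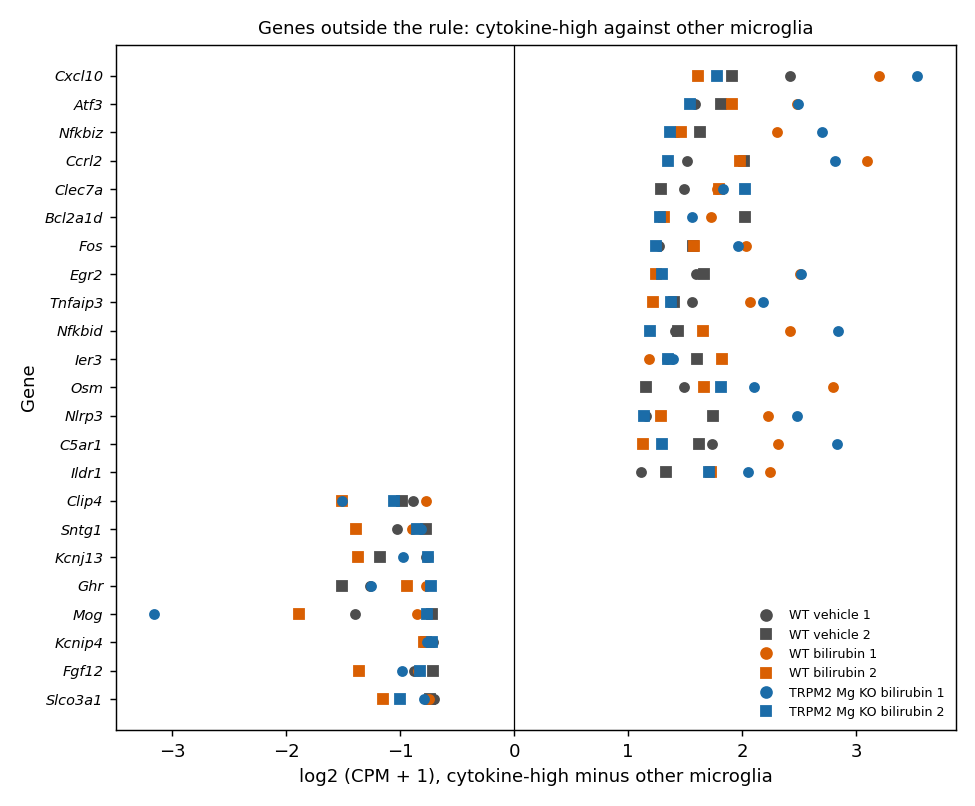
Difference in log2(CPM + 1) between cytokine-high and other microglia for the 15 genes most consistently higher and the 8 most consistently lower among genes outside the rule. Each row is a gene with 1 point per library, and no error bars are drawn. All points of the upper 15 genes lie above 1.11 and all points of the lower 8 below -0.70.

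Under bilirubin, 4 genes rose in wild-type members and none fell: 3 neutrophil granule and acute-phase genes and 1 predicted gene. The fit was edgeR's quasi-likelihood test on summed counts of all 6 libraries over 12659 genes with Benjamini-Hochberg adjustment, and 0.0316% of genes were called. Ngp, a granule protein of neutrophil precursors, stood at 1.41 and 3.02 CPM in WT vehicle and 186 and 79.6 CPM in WT bilirubin, a log2 fold change of 5.77 (SE 0.55, edgeR adjusted p = 0.000264). Lcn2, a siderophore-binding protein of neutrophil granules and acute-phase responses, stood at 2.12 and 3.78 against 91.7 and 107 CPM (4.96, SE 0.69, edgeR adjusted p = 0.00991). S100a8, one chain of the neutrophil protein calprotectin, stood at 19.1 and 34.0 against 313 and 1303 CPM (4.90, SE 0.66, edgeR adjusted p = 0.00991).

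A few members held most UMIs of Ngp and S100a8 in WT bilirubin, and 7 of the 12 neutrophil markers passed the low-count filter. In WT bilirubin 1, 33 of 777 members held 710 Ngp UMIs, with 96.1% of them in the 5 highest members, and in WT bilirubin 2, 10 of 363 members held 121, with 95.9% in 5. S100a8 had 1196 UMIs in 115 members of WT bilirubin 1 and 1982 in 69 members of WT bilirubin 2, with 90.0% and 91.7% in the 5 highest. Members with at least 3 of the 12 neutrophil markers numbered 2 and 7 in WT vehicle, 25 and 11 in WT bilirubin and 4 and 9 in TRPM2 Mg KO bilirubin.

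Without those members, an alternative chosen after seeing the data, the neutrophil calls ended. Lcn2 still differed by 3.74 on the log2 scale (edgeR adjusted p = 0.211) and S100a8 by 2.24 (0.184), and Ngp no longer passed the low-count filter. S100a8 then stood at 6.12 and 7.65 CPM in WT vehicle, 29.8 and 47.5 CPM in WT bilirubin and 9.01 and 14.1 CPM in TRPM2 Mg KO bilirubin. G530011O06Rik was then the 1 gene called by edgeR between WT bilirubin and WT vehicle members. With all members, the S100a8 call was also lost without either knockout library, whose spread enters the fit (edgeR adjusted p of 0.103 and 0.07), and in the fit of the 4 libraries compared (0.159). In members with none of the 5 exclusion genes Ngp did not pass the filter, and the calls of S100a8 (1.41, edgeR adjusted p = 0.137) and Lcn2 (2.82, 0.0946) were lost.

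**Figure D4:**
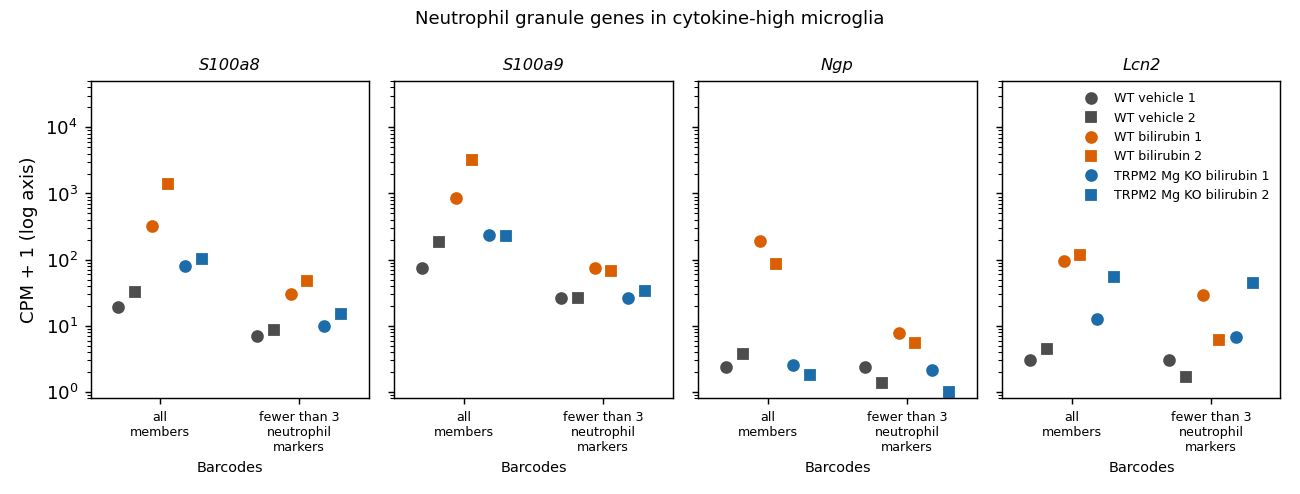
CPM + 1 on a log axis for S100a8, S100a9, Ngp and Lcn2 in cytokine-high microglia, 1 point per library, in all members and in members with fewer than 3 of 12 neutrophil markers. S100a8 in WT bilirubin drops from 323 and 1411 CPM, unscaled, to 29.8 and 47.5 CPM without those members. All of these genes are among the 12 markers that define the filter, so a drop is in part built in.

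G530011O06Rik, a predicted gene with no role given in the files, was named after its values were seen. It stood at 14.8 and 19.3 CPM in WT vehicle, 106 and 99.3 CPM in WT bilirubin and 65.6 and 51.4 CPM in TRPM2 Mg KO bilirubin. WT bilirubin lay above WT vehicle by 2.57 on the log2 scale (SE 0.36, edgeR adjusted p = 0.00991). Its call was lost without WT vehicle 1, without TRPM2 Mg KO bilirubin 1 and in the fit of the 4 libraries compared (edgeR adjusted p of 0.129, 0.0648 and 0.0719). It was spread over many members, with a UMI in 2.76% and 5.81% of WT vehicle, 31.0% and 28.4% of WT bilirubin and 25.9% and 23.5% of TRPM2 Mg KO bilirubin members.

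The genes next in rank did not pass the test but separated the libraries, as 22% of all genes did upward and 22.9% downward. The antimicrobial peptide Camp stood at 0.706 and 6.80 CPM in WT vehicle against 225 and 30.3 CPM in WT bilirubin (edgeR adjusted p = 0.0529), and S100a9, the other calprotectin chain, at 76.2 and 204 against 816 and 3011 CPM (0.0756). Wfdc21 and Hp, the haemoglobin-binding haptoglobin, differed by 3.61 and 2.97 on the log2 scale, Ifitm6 by 4.0 and the inhibitory myeloid receptor Pirb by 2.13 (edgeR adjusted p from 0.0756 to 0.158). The lower ones were largely neuronal or glial transcripts: Dio2, the thyroid hormone deiodinase of astrocytes (-2.52), Sorcs3 (-2.31), C1ql3 (-2.57), Kcnq3 (-1.68), Rbfox3 (-1.71) and Lhx2 (-2.32), and the histone gene H2ac8 (-1.86), with edgeR adjusted p from 0.0875 to 0.159.

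None of the genes in the lists of microglial function passed the test between WT bilirubin and WT vehicle members by edgeR. Over all 12659 genes, 1376 had an unadjusted p under 0.05, and DESeq2 called 15. Among those 15 was Ctsl of the disease-associated list (DESeq2 adjusted p = 0.0412). For genes of these lists, libraries separated upward more often than downward in most lists. Of 18 danger and cytokine receptors 11 lay higher in both WT bilirubin libraries and none lower, with a median log2 difference of 0.42 against 0.04 over all genes. Of 12 antigen presentation genes 8 lay higher and none lower (median 0.75), of 32 homeostatic genes 20 and 4 (0.51), and of 18 disease-associated genes 11 and 1 (0.48). The sum of the 32 homeostatic genes went the other way without overlap. It was 121250 and 97739 CPM, unscaled, in WT vehicle members and 82555 and 86172 CPM in WT bilirubin members. Of 16 neuronal transcripts, none lay higher and 15 lower (-1.66), and the neuronal sum was far higher in WT vehicle 1 than in the other libraries, as given above.

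Signalling genes showed the same separation in part. Of 24 NF-kB genes 12 lay higher and 2 lower, of 30 immediate-early genes 15 and 0, of 15 chemokines and growth factors 7 and 3, and of 14 IL-1 and inflammasome genes 6 and 2. Interferon genes (3 higher and 2 lower of 16) and NADPH oxidase and antioxidant genes (5 and 2 of 23) stayed near or below the all-gene shares upward, with medians of 0.07 and 0.03. Of 19 calcium genes 7 lay higher and 4 lower, and of 5 C/EBP genes 2 and 1.

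Single genes of these lists gave the following sizes, all with edgeR adjusted p of 0.201 or more. Cxcl16, a membrane-bound chemokine, stood at 17.6 and 19.6 CPM in WT vehicle against 38.3 and 54.6 CPM in WT bilirubin, and Cxcl14 at 112 and 71.0 against 41.9 and 16.4 CPM. Socs3, the feedback brake on cytokine receptors, stood at 104 and 86.5 against 197 and 207 CPM. The dual-specificity phosphatase Dusp2 differed by 1.44 on the log2 scale, the interleukin-10 receptor chain Il10rb by 1.24 and the TNF receptor Tnfrsf1a by 1.10.

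Lysosomal, antigen and oxidase genes were of like size. Ctsl, the lysosomal protease cathepsin L, stood at 356 and 519 CPM in WT vehicle against 1514 and 1263 CPM in WT bilirubin, a log2 difference of 1.66. Cybb, the catalytic subunit of the phagocyte NADPH oxidase, differed by 1.76. H2-Aa, an MHC class II chain, differed by 1.34, and the peptide transporter Tap1 by 1.26.

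The other genes of the lists ranged from 0.72 to 1.37 upward: Relb, Birc3, Myd88, Gsdmd, Gpr84, Cd53, Clec7a, Irf7, Ifitm3 and P2ry6, a UDP receptor of phagocytosis. The calcium-release channel Ryr3 differed by -0.95 and the neuronal RNA Bc1 by -3.43 (edgeR adjusted p = 0.169). Cebpz differed by -0.64 and the endothelial markers Ly6c1 and Itm2a by 1.01 and 0.84, each with overlapping libraries.

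Cebpb fell in knockout members relative to WT bilirubin members, and it was the 1 called gene of this comparison that is not a neutrophil granule gene. Cebpb encodes a C/EBP factor that drives myeloid and acute-phase genes. After library scaling it stood at 143 and 144 CPM in WT vehicle, 311 and 305 CPM in WT bilirubin and 45.4 and 31.9 CPM in TRPM2 Mg KO bilirubin. Both knockout libraries lay below every other library, and the log2 fold change was -2.98 (SE 0.40, edgeR adjusted p = 0.0114). WT bilirubin members differed from WT vehicle members by 1.10 for Cebpb (SE 0.37, edgeR adjusted p = 0.272), without overlap. In all, 3 genes were called, all lower, 0.0237% of the genes tested.

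Many members carried Cebpb. It had 203 and 381 UMIs in 169 and 269 WT vehicle members, 1186 and 464 in 515 and 212 WT bilirubin members, and 132 and 36 in 110 and 30 TRPM2 Mg KO bilirubin members. With each cell thinned to 2000 UMIs, 24.4% and 22.8% of WT vehicle, 44.1% and 42.5% of WT bilirubin and 10.3% and 6.88% of TRPM2 Mg KO bilirubin members had a UMI. The call was lost without either knockout library (edgeR adjusted p up to 0.135) and held in the other 17 of 19 alternatives, with log2 fold changes of -3.115 to -2.68.

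The low Cebpb level of the knockout libraries was seen outside members too. Other microglia held 66.7 and 57.8 CPM in WT vehicle, 104 and 154 CPM in WT bilirubin and 16.6 and 12.1 CPM in TRPM2 Mg KO bilirubin, unscaled. The ratio of members to other microglia was 2.06 and 2.28, 3.08 and 2.15, and 3.10 and 2.38, and overlapped between groups. Barcodes with none of the 8 microglia genes held 34.8 and 20.9, 57.9 and 36.4, and 8.98 and 7.29 CPM. Endothelial barcodes held 27.6 and 19.6, 60.9 and 34.3, and 9.55 and 12.1 CPM, and choroid plexus barcodes 18.1 and 12.8, 33.9 and 25.4, and 4.21 and 6.74 CPM. At 2000 UMIs per cell, 0.973% to 11.6% of endothelial and choroid plexus barcodes had a Cebpb UMI, below the members of the same library in every library. The part of free RNA in these levels was not tested.

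**Figure D5:**
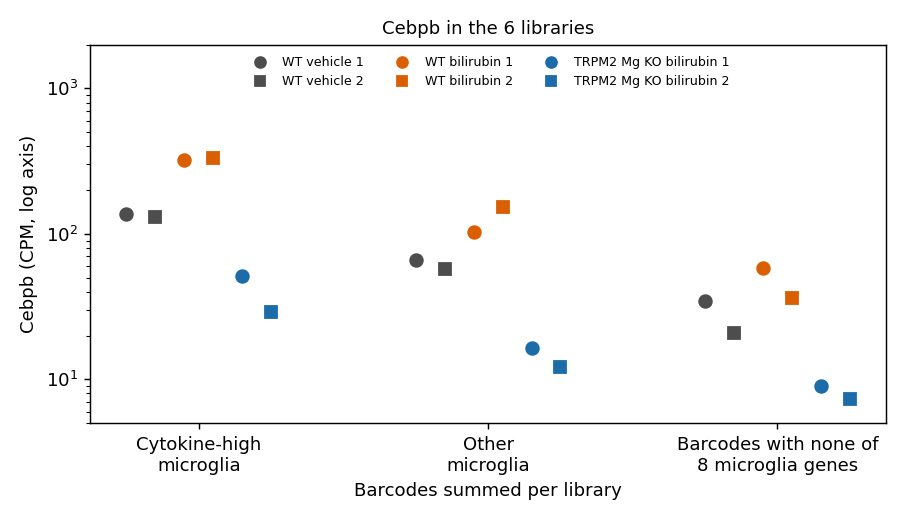
Cebpb in CPM on a log axis in cytokine-high microglia, other microglia and barcodes with none of the 8 microglia genes, 1 point per library, without library scaling. The knockout libraries are lowest in all 3 kinds of barcode (51.3 and 28.8 CPM in members, against 131 to 330 CPM in the other 4 libraries).

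The other called genes were Ngp and Camp, and the same few WT bilirubin members held them. Ngp stood at 186 and 79.6 CPM in WT bilirubin against 1.37 and 0.886 CPM in the knockout (-6.71, SE 0.61, edgeR adjusted p = 0.000137), and Camp at 225 and 30.3 against 0.687 and 0.886 CPM (-7.34, SE 1.05, edgeR adjusted p = 0.0156). The knockout counts behind these values were 1 or 2 UMIs of Camp per library. Both calls were lost without either knockout library, where no gene was called. Without members that had at least 3 neutrophil markers, Cebpb was the 1 gene called, but Ngp and Camp are themselves among those markers. S100a8 and S100a9 differed by -3.17 and -3.05 and Wfdc21 by -2.35 (edgeR adjusted p from 0.3 to 0.588).

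Endothelial transcripts separated upward in the knockout without passing the test, beside the endothelial RNA given above. All 7 endothelial markers lay higher in both knockout libraries than in both WT bilirubin libraries, with a median log2 difference of 1.99, where 13.6% of all genes lay higher and 13% lower without overlap. Cdh5, the endothelial cadherin, stood at 13.9 and 9.21 CPM in WT bilirubin against 32.0 and 65.5 CPM in the knockout. The VEGF receptor Kdr stood at 13.6 and 12.5 against 33.0 and 59.3 CPM, and Cxcl12, a chemokine of endothelium and meninges, at 71.8 and 24.99 against 181 and 588 CPM. Car4, Nostrin, Adgrl4, Cav1, Ly6c1, Hmcn1 and Tmtc2 differed by 1.64 to 2.5 and Tmsb15b1 by -2.68 (edgeR adjusted p from 0.345 to 0.789 for all of these). With members that had at least 3 endothelial markers left out, an alternative chosen after seeing the data, the calls were Cebpb, Ngp, Lcn2 and S100a8.

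In the lists of microglial function, Cebpb was the 1 call between the genotypes by edgeR. Over all genes, 503 had an unadjusted p under 0.05, and DESeq2 called 8. In these lists separated libraries were mostly lower in the knockout, where over all genes 13% lay lower and 13.6% higher. Of 12 antigen presentation genes 10 lay lower and none higher (median -0.46, against 0.02 over all genes), of 15 chemokines and growth factors 8 lower and 2 higher (-0.85), and of 30 immediate-early genes 15 and 1 (-0.57). Of 24 NF-kB genes 11 lay lower and none higher (-0.39), of 32 homeostatic genes 15 and 0 (-0.33), of 18 disease-associated genes 8 and 0 (-0.41), and of 23 oxidase and antioxidant genes 8 and 0 (-0.34).

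Of the 5 C/EBP genes 3 lay lower, Cebpb among them, and none higher (median -0.33). Of 18 danger and cytokine receptors 5 lay lower and none higher, and of 14 IL-1 and inflammasome genes 4 and 1. Of 19 calcium genes 3 lay lower (15.8%, near the 13% of all genes) and 0 higher. Interferon genes went the other way, with 4 of 16 higher and 1 lower.

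Single genes had these sizes, none passing the test (edgeR adjusted p of 0.689 or more). Ccrl2 stood at 248 and 256 CPM in WT bilirubin against 124.7 and 75.3 CPM in the knockout, and Ccl12, a CCR2 ligand, at 506 and 504 against 210 and 168 CPM. Socs3 stood at 197 and 207 against 99.6 and 70.0 CPM, and Cebpa, the C/EBP factor of myeloid commitment, at 131 and 145 against 76.6 and 74.4 CPM. H2-Aa and H2-Eb1, both MHC class II chains, differed by -2.00 and -1.96, though WT bilirubin 1 and 2 themselves differed more than 2-fold for both.

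The other list genes with separated libraries differed by -1.67 to -0.44: Gadd45b, Bcl2a1d, Tlr2, Dusp2, Gpr84, Runx1, Cst7, Gsr and the store-operated calcium channel Orai1. Nlrp3, Tnfrsf1b and Cd52 differed by -0.76, -0.55 and -0.71 and Sod1 by 0.69, with overlapping libraries. Upward, the interferon genes Isg15 and Ifit1 differed by 1.26 and 1.29, the receptor Il1r1 by 1.00, and the neuronal RNA Bc1 by 1.94.

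No gene was called by edgeR between knockout members under bilirubin and WT vehicle members. At an unadjusted p under 0.05 there were 764 genes, and DESeq2 called 12, with Cebpb, Fam110d and Ly6c1 among them. Libraries separated upward for 17.9% of genes and downward for 17.2%. The 4 genes first in rank were Fam110d (4.20), Prtn3, a neutrophil serine protease (3.82), Ly6c1 (3.0) and Cebpb (-1.88), with edgeR adjusted p from 0.258 to 0.314. Prtn3 rested on library TRPM2 Mg KO bilirubin 1, at 49.5 CPM against 5.31 CPM in the other knockout library.

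Across all microglia, where the cytokine threshold plays no part, none of the 7 cytokine genes passed the test by edgeR in any comparison, and edgeR called 0.00598%, 0.0239% and 0.00598% of 16709 genes for bilirubin, for the genotype and between the knockout and WT vehicle. Between WT bilirubin and WT vehicle, 3 of the 7 had an unadjusted p under 0.05, as 11.3% of all genes did, and DESeq2 called 1. Il1a, Il1b and Cd83 lay higher without overlap, as 20% of all genes did. Il1b stood at 5.86 and 15.2 CPM in WT vehicle, 30.3 and 77.3 CPM in WT bilirubin and 24.8 and 21.3 CPM in TRPM2 Mg KO bilirubin. Both WT bilirubin libraries lay above the rest, and the log2 difference from WT vehicle was 2.31 (SE 0.50, edgeR adjusted p = 0.32).

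Il1a and Cd83 had the same order. Il1a stood at 49.4 and 47.4, 89.2 and 118, and 81.1 and 52.6 CPM (1.09, SE 0.34, edgeR adjusted p = 0.329), and Cd83 at 105 and 74.8, 145 and 266, and 123 and 111 CPM (1.19, SE 0.38, edgeR adjusted p = 0.331). Ccl2, Ccl3, Ccl4 and Tnf overlapped between these groups. From WT bilirubin to the knockout, 6 of the 7, all but Ccl2, lay lower without overlap, by -0.62 to -1.20 on the log2 scale, each with an edgeR adjusted p of 1, where 13.2% of all genes tested in all microglia lay lower without overlap.

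Whether bilirubin acted differently on members and other microglia was tested by an interaction term in edgeR over 12 sums, 1 per library and state. Of 14161 genes, 2 were called for WT bilirubin against WT vehicle (0.0141%), both calprotectin chains. S100a8 stood at 18.3 and 31.0 CPM in WT vehicle members and 323 and 1411 CPM in WT bilirubin members, against 88.1 and 107, and 117 and 901 CPM in other microglia. The log2 effect was larger in members by 2.95 (SE 0.29, edgeR adjusted p = 1.55e-05), and that of S100a9 by 2.52 (SE 0.38, edgeR adjusted p = 0.0113). In barcodes with fewer than 3 neutrophil markers, an alternative chosen after seeing the data, the differences were -0.47 and -0.80, and no gene was called by edgeR. Both chains are themselves among those markers, so the filter bears on them by construction. In barcodes with none of the 5 exclusion genes both calls were lost too, at 1.40 for S100a8 (edgeR adjusted p = 0.101) and 0.017 for S100a9 (0.997). The S100a9 call was also lost with median-of-ratios factors, from 1000 UMIs upward and with at least 4 cytokine genes (edgeR adjusted p from 0.131 to 0.312), and without WT vehicle 1, WT bilirubin 1, WT bilirubin 2 or TRPM2 Mg KO bilirubin 2 (edgeR adjusted p from 0.0673 to 1).

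No other gene was called for this difference of effects. Cxcl2, a neutrophil chemokine, differed by -1.62 (edgeR adjusted p = 0.122) and Cebpb by 0.17 (0.936). Between the genotypes none of the 14161 genes was called by edgeR, with 367 at an unadjusted p under 0.05. The myelin gene Ermn differed by -1.63 and the actin-binding gene Tagln by 1.34 (edgeR adjusted p = 0.844 for both), and Cebpb by 0.08 (1).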

How the data were processed

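Gene-by-barcode tables of 6 single-cell libraries were used. Per the labels' protocols, fresh suspensions went through Chromium 3′ v3.1 chemistry. The authors deposited UMI counts, whole and not normalized, with lists of barcodes and gene names, per the file headers made with Cell Ranger 9.0.1. The submitters' processing notes name Cell Ranger 8.0.0, the builds mm10 and GRCm39, whose roles are not given, and Scanpy 1.9.6. A single UMI makes a gene detected, so depth bears on membership, and thinning to 1000 or 2000 UMIs (10 draws) was run beside it.

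Raw counts were summed per library over members, and over other microglia for the interaction, which had 12 sums. edgeR 4.0.16 (TMM scaling, filterByExpr, quasi-likelihood fit of all 6 libraries, 3 residual degrees of freedom) gave the tests, with Benjamini-Hochberg adjustment and a threshold of 0.05. DESeq2 1.42.0 was an alternative. CPM with a fold change are TMM-scaled, others are not. Shares used exact permutation tests (scipy 1.17.1), and Scrublet (scanpy 1.11.5, R 4.3.3 and Python 3.11.15 otherwise) marked the highest doublet scores at 0.8% per 1000 barcodes, a mark of 3.35% to 15.6% of members, which were kept. The scripts were tested on simulated data.

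The members and the 27 lists were chosen with earlier results of these data known. Named genes were the 20 of the rule, Trpm2 and Cebpb; the 16 first by call and then p in each bilirubin and genotype comparison, and 4 in the third, whose mean CPM reached 5 and whose libraries did not overlap; the 2 smallest p of each list; and the 15 highest and 8 lowest member ratios and 3 interaction genes per comparison. Predicted genes were counted only, with 1 exception said in the text, and a few genes that this rule names are not reported here. Lists of border macrophages, monocytes and dendritic cells, T and NK cells, B cells, astrocytes, oligodendrocytes, mural cells and fibroblasts, choroid plexus and erythroid cells gave counts only. None of their genes was called by edgeR between WT bilirubin and WT vehicle or between the genotypes.

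Replicate numbers only name libraries: correlations of same-numbered deviations across genes were -0.12, 0.02 and -0.29.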

Additional observations from a re-analysis of the deposited data

Results flagged for a closer look

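The bilirubin effect on both calprotectin chains differed between cytokine-high and other wild-type microglia by the interaction test in edgeR. The log2 effect in members exceeded that in other microglia by 2.95 for S100a8 (SE 0.29, edgeR adjusted p = 1.55e-05) and by 2.52 for S100a9 (SE 0.38, edgeR adjusted p = 0.0113). In WT vehicle, S100a8 was lower in members (18.3 and 31.0 CPM) than in other microglia (88.1 and 107 CPM), and in WT bilirubin it was higher in members (323 and 1411 CPM against 117 and 901 CPM). Both chains are themselves among the neutrophil markers, so a filter on those markers bears on them by construction. Members with at least 3 neutrophil markers numbered 25 and 11 in WT bilirubin and 2 and 7 in WT vehicle, and without such barcodes the differences were -0.47 and -0.80. In barcodes with none of the 5 exclusion genes they were 1.40 and 0.017 (edgeR adjusted p of 0.101 and 0.997).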

How the results depend on the processing

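With 2 libraries a group, counts of called genes were unstable, and the cause was not tested beyond each alternative's construction. Against 4, 3 and 0 genes called in members (bilirubin against vehicle, knockout against WT bilirubin, knockout against vehicle), no low-count filter gave 219, 90 and 114, DESeq2 15, 8 and 12, fits of the 4 libraries compared 2, 3 and 33, and genes above their whole-library CPM 10, 4 and 1. Cells thinned to 2000 UMIs gave 9, 3 and 0, no exclusion gene 3, 1 and 0, and, added after seeing the data, fewer than 3 neutrophil markers 1, 1 and 0 and fewer than 3 endothelial markers 4, 4 and 1. With a replicate block the counts were 53, 8 and 21, though the numbers pair nothing in the labels. Leaving out 1 library gave 2 to 161, 0 to 99 and 0 to 57; the highest counts came without WT bilirubin 1 (161 and 99) and WT bilirubin 2 (57), and 0 genotype genes were left without either knockout library, the lone library left being assumed to vary like the others. The 4 bilirubin genes were among the calls with no filter, by DESeq2 and with the block, as were the 3 genotype genes.

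The interaction calls for bilirubin (2) were 1 (S100a8) with median-of-ratios factors or 1000 UMIs, 1 with no exclusion gene (Camp, with both calprotectin calls lost), 19 without the filter, 5 thinned to 2000 UMIs, 0 with fewer than 3 neutrophil markers and 1 to 17 without 1 library (17 without TRPM2 Mg KO bilirubin 1). For the genotype (0) they were 11, 4 with no exclusion gene, 1 with fewer than 3 neutrophil markers and 0 to 62 (62 without TRPM2 Mg KO bilirubin 1). Of the 7 cytokine genes in all microglia, 1 was called for bilirubin without the filter, by DESeq2 and without WT bilirubin 1, and 0 without any other library.

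The mean shares in WT vehicle, WT bilirubin and the knockout were 32.2%, 38.6% and 29.8% with at least 2 cytokine genes, 5.10%, 12.9% and 8.48% with at least 4, 7.39%, 14.4% and 6.87% at 1000 UMIs, and 19.8%, 31.3% and 17.8% at 2000 UMIs. With the exclusion genes not used the knockout mean was 29.8%.

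Uncalled log2 values that changed sign with 1 library left out ranged, for bilirubin, from -0.32 to 1.66 (Ly6c1) and -0.86 to 1.56 (Itm2a), both lowest without WT bilirubin 1, and in all microglia from -0.78 to 0.51 (Ccl2) and -0.88 to 0.17 (Ccl4), both highest without WT vehicle 1, and -0.012 to 0.44 (Tnf, lowest without WT bilirubin 2). For the genotype, Sod1 ranged from -0.29 (without TRPM2 Mg KO bilirubin 2) to 1.32, and between the knockout and WT vehicle in all microglia Ccl2 from -1.16 to 0.13 and Ccl3 from -0.86 to 0.11, both highest without WT vehicle 1. In the interaction, Cebpb ranged from -0.065 (without WT bilirubin 1) to 0.34 for bilirubin and from -0.059 (without TRPM2 Mg KO bilirubin 1, with a further change of sign at -0.04 without WT bilirubin 2) to 0.36 for the genotype, and Trpm2 from -0.28 to 0.99 and from -0.72 to 0.55. With at least 4 cytokine genes, Cebpb gave -0.030 for bilirubin and Trpm2 0.044 for the genotype in the interaction, and Trpm2 0.12 between the knockout and WT vehicle, where it gave 0.48 at 2000 UMIs. With no exclusion gene, S100a9 gave -0.72 for bilirubin, and in the interaction for the genotype Cebpb gave -0.049 and Tagln -0.48. With fewer than 3 endothelial markers Hmcn1 gave -0.39 for the genotype. With fewer than 3 neutrophil markers S100a8 and S100a9, called in the interaction and themselves among those markers, turned to -0.47 and -0.80.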
